A study of Mus musculus with 30 samples.

Results

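The 10 genes described here are Atf4, which encodes the central transcription factor of the integrated stress response, and 9 genes known as its targets or as part of the amino acid programme that it controls. They were taken by name as a known pathway, with no threshold on a measured value, although earlier results of these data were known when the names were chosen. They come from a table of 56748 genes, and all 10 were found in it. Ddit3 and Trib3 encode a further transcription factor and a pseudokinase of the response, Chac1 a glutathione-degrading enzyme, Sesn2 a stress-induced inhibitor of mTORC1 signalling, Asns the asparagine synthetase, Phgdh and Psat1 enzymes of serine synthesis, and Fgf21 and Gdf15 hormones that stressed muscle can secrete. Poly(A)-selected RNA was sequenced from the quadriceps of 30 mice, 1 library a mouse, to ask how gene expression responds to an oligonucleotide treatment in a model of myotonic dystrophy type 1 (DM1).

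The labels give the strain as FVB/N for 24 mice and give none for the other 6. All mice were 8 weeks old at injection, which was into the tail vein, and the muscle was taken 2 weeks after the last dose. The 5 WT mice and the 8 nontreated (NT) mice received no drug. The NT mice and all treated mice were of the HSA-LR20b line, genotype DM1, in which an expanded CUG repeat is transcribed from a human skeletal actin transgene, so that muscle fibres carry the repeat and other cells of the tissue do not. L9 is a locked nucleic acid antisense oligonucleotide complementary to the repeat, and pacDNA-L9 is L9 joined to a bottlebrush polymer. The conjugate was given to DM1 mice at 3 doses, with 4 mice at 5.3 mg/kg, 3 mice at 21.2 mg/kg and 3 mice at 42.4 mg/kg. By the paper, the 21.2 mg/kg dose was split into 4 injections over 2 weeks and the 42.4 mg/kg dose into 8. These 2 doses thus also differ in number of injections. A further 3 mice received free L9 at 5.3 mg/kg, 2 mice received 40 nmol of the polymer alone (Brush), and 2 mice received pacDNA-Scr, the polymer with a scrambled oligonucleotide, at 5.3 mg/kg. The labels do not say whether mice of a group came from separate litters, so p-values measure the spread between these animals. The libraries were deposited as 2 separately numbered sets, the first with 24 libraries and the second with 6, which held mice 7 and 8 of NT, mouse C of free L9, mouse C of the 21.2 mg/kg dose, and mice C and D of the 5.3 mg/kg dose of pacDNA-L9.

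In the integrated stress response, kinases that sense misfolded protein, amino acid lack, viral RNA or haem shortage phosphorylate the initiation factor eIF2. General translation then falls, while the messenger RNA of Atf4 is translated more, through short upstream reading frames. The protein binds composite C/EBP-ATF elements near amino acid synthesis, transport and redox genes. In skeletal muscle the response is best known from mitochondrial disease, where Fgf21 and Gdf15 are released into the blood. Because part of this control acts on translation, a level of Atf4 mRNA is not a level of the protein.

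The core of the C/EBP-ATF element, also called the amino acid response element, was searched as TGATGNAA on both strands in RefSeq promoter windows of build GRCm38.p6, 250 bases before to 50 after a start site, since it is the sequence through which several members are known to be induced. Promoter windows were found for all 10 members, with 2 windows each for Gdf15 and Psat1 and 1 for the others. The core was present in the window of Trib3, Chac1, Asns and Fgf21, that is in 4 of 10 members, against 4.51% of 27025 genes with a window (3.97% of 32851 windows). The letters TGACGT of the cAMP response element, which may share bases with this core but cannot lie inside it, were in no member's window and in those of 8.37% of genes (7.51% of windows). The 4 stretches are printed in the direction of transcription with the core, or its reverse complement, in capitals.
Trib3: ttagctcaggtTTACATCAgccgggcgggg
Chac1: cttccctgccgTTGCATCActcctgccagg
Asns: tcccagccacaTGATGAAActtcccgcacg
Fgf21: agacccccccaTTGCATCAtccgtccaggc
Positions come from an exact match to GRCm39. The Trib3 stretch lies at chr2:152185948-152185977 (minus strand) in an annotated untranslated exon, 15 to 22 bases after the RefSeq start site. The Chac1 stretch lies at chr2:119181519-119181548 (plus strand), with the core at bases -193 to -186, within an untranslated exon of a longer annotated transcript. The Asns stretch lies at chr6:7693214-7693243 (minus strand), with the core at bases -23 to -16, also within an annotated untranslated exon. The Fgf21 stretch lies at chr7:45265035-45265064 (minus strand), with the core at bases -139 to -132, in an annotated intron. A match of these letters is a description of the sequence and was not tested for binding, and no match means only that the letters are not in this window.

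The depth of the libraries ran from 13605309 to 26956558 counts, so that 3 counts, taken as the least a library can show, were worth 0.106 to 0.268 CPM, the unit of level used here, in which counts are set to a common library size after TMM scaling. Of the 17518 genes with enough counts to test, 9 were members, and Fgf21 fell below the limit. The second set stood apart on the first principal component, which held 59.9% of the variance (scores of 152 to 195 against -59.1 to -39.8 in the first set). Of its 6 libraries, 5 listed all 37 mitochondrial genes at 0. The set was therefore a term in the main model of every comparison. Free L9 B stood apart too, with 14438 genes detected at equal depth against 17479 to 21070 in the other 29 libraries and 149 genes at 0 that had at least 20 counts in every other library. Muscle fibre markers summed to 108491 to 206588 CPM in each library and the 4 liver markers to at most 0.953 CPM, as the tissue label states.

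**Figure D1:**
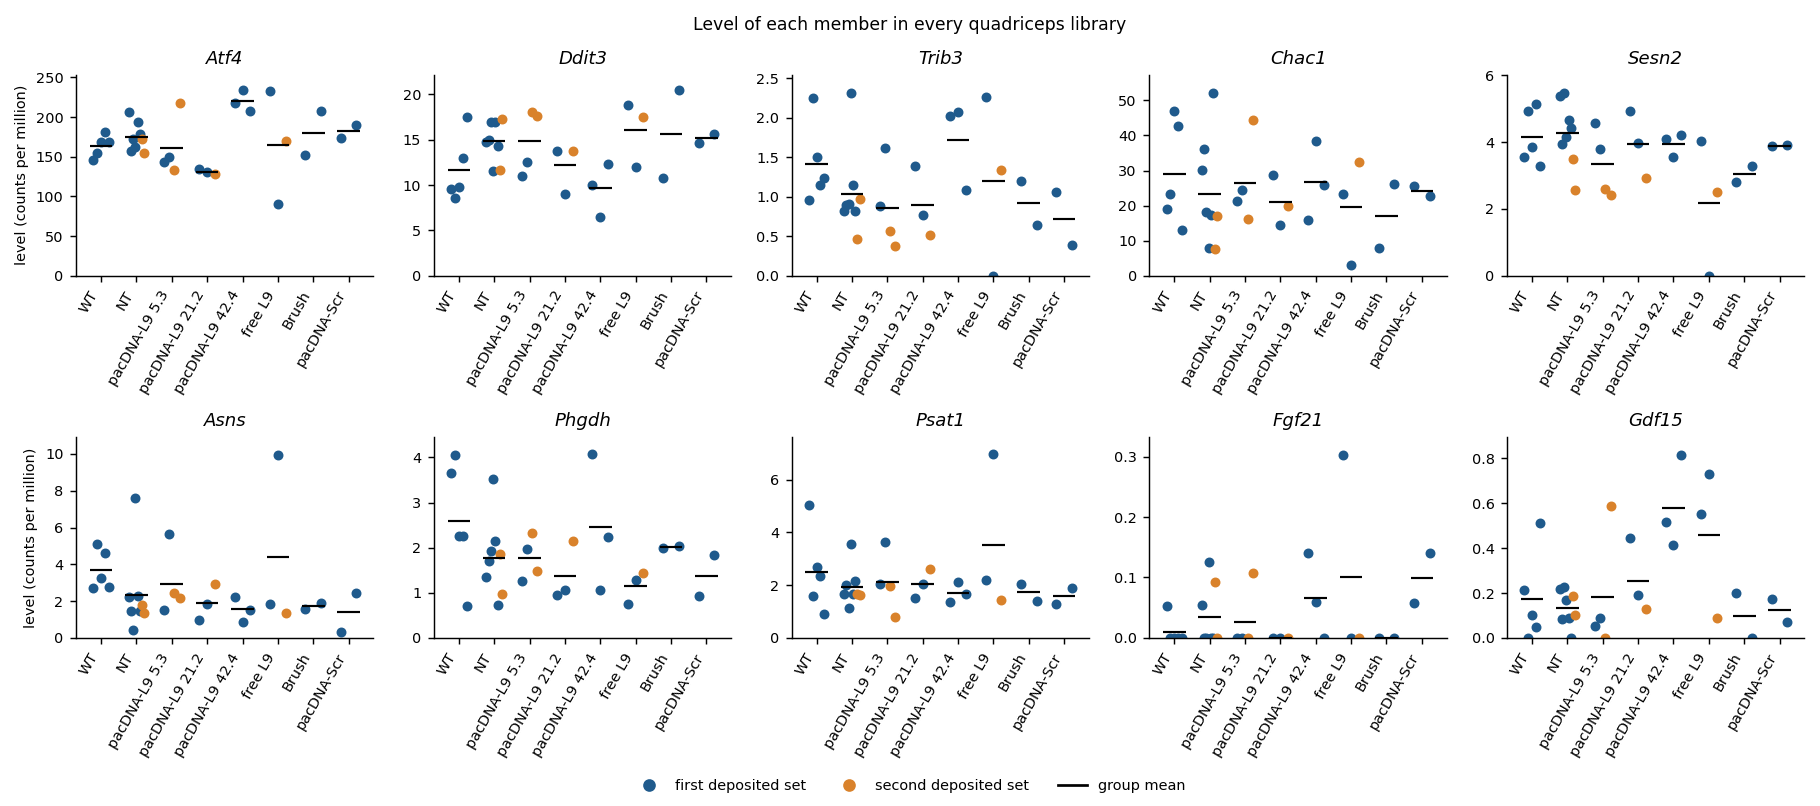
Level of each of the 10 members in CPM (y axis, starting at 0, scaled for each gene) in every library, by group (x axis, pacDNA-L9 doses in mg/kg). Points are mice, blue for the first and orange for the second deposited set, and bars are group means. Atf4 lies between 90.1 and 234 CPM, and Fgf21 is at 0 in 20 of 30 libraries.

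Atf4 (ENSMUSG00000042406), at chr15:80139372-80141745 on the plus strand of GRCm39, was the most abundant member. Per kilobase of canonical transcript the mean level over the 30 mice was 98.3 CPM for Atf4, 14.5 for Chac1, 14.0 for Ddit3, 1.07 for Sesn2, 0.986 for Phgdh, 0.83 for Psat1, 0.536 for Asns, 0.535 for Trib3, 0.122 for Gdf15 and 0.0394 for Fgf21. In WT mice Atf4 stood at 146, 154, 169, 169 and 181 CPM, and the 8 NT mice ranged from 155 to 206 CPM with a median of 172 CPM. The groups overlapped, and the fitted log2 difference of NT from WT was 0.09 ± 0.16 (SE, 95% interval -0.23 to 0.41, adjusted p = 0.864, edgeR quasi-likelihood test). An increase of Atf4 mRNA beyond 1.33-fold or a decrease below 0.850-fold in NT was thus outside the interval.

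No member passed the threshold of 0.05 between NT and WT, where 5.31% of all genes tested did (930 genes). Of the 9 members tested, 0 had an unadjusted p under 0.05, against 16.5% of all genes (2894 genes), and DESeq2 called 0 members and 1265 genes. Their median log2 difference was -0.28, against -0.03 over all genes. The standard errors were 0.16 for Atf4 and 0.20 for Ddit3, and 0.38 or more for the other members.

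Ddit3 (chr10:127124268-127132163, plus strand), also known as CHOP, a transcription factor linked to cell death under lasting stress, stood at 8.54, 9.54, 9.78, 13.0 and 17.5 CPM in WT and at 11.6 to 17.3 CPM in NT, with a median of 14.9 CPM. Most NT mice lay above the lower WT mice, and 1 WT mouse lay above all of them. The log2 difference was 0.29 ± 0.20 (95% interval -0.12 to 0.70, adjusted p = 0.522). Of the annotated exon bases of Ddit3, 82.4% lie under exons of genes on the other strand, among them Mars1 and Mbd6, and whether the counting used strand is not given in the sources used here, so its counts may hold reads of these neighbours.

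Trib3, a pseudokinase that dampens the response, was low, with 0.954 to 2.25 CPM in WT and 0.464 to 2.31 CPM in NT. Chac1, the enzyme that degrades glutathione and one of the most responsive targets of the programme, ranged from 13.0 to 47.0 CPM in WT and from 7.52 to 52.2 CPM in NT. Both groups of mice thus covered nearly the same wide range. The log2 difference of NT from WT was -0.28 ± 0.49 for Trib3 (adjusted p = 0.868) and -0.31 ± 0.49 for Chac1 (adjusted p = 0.844), with the 95% interval of Chac1 at -1.34 to 0.72. Sesn2, which ties the response to mTORC1, stood at 3.29 to 5.15 CPM in WT and 2.56 to 5.46 CPM in NT, a log2 difference of 0.14 ± 0.38 (adjusted p = 0.930).

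The biosynthetic members were at low levels with lower estimates in NT, none past the threshold. Asns (chr6:7671667-7728461, minus strand), which makes asparagine from aspartate and glutamine, stood at 2.70, 2.77, 3.26, 4.60 and 5.11 CPM in WT. In NT it ranged from 0.455 to 7.60 CPM with a median of 1.65 CPM, and 7 of the 8 NT mice lay at 2.29 CPM or less, below every WT mouse, whereas NT 4 lay above all WT mice. The log2 difference was -0.54 ± 0.52 (95% interval -1.62 to 0.54, adjusted p = 0.700). Without NT 4 it was -1.13, still short of the threshold (adjusted p = 0.216). Phgdh, the first enzyme of serine synthesis, stood at 0.719 to 4.04 CPM in WT and 0.722 to 3.53 CPM in NT, a log2 difference of -0.57 ± 0.38 (95% interval -1.36 to 0.22, adjusted p = 0.509). Psat1, the next enzyme of the pathway, stood at 0.925 to 5.03 CPM in WT and 1.14 to 3.57 CPM in NT, a log2 difference of -0.24 ± 0.38 (adjusted p = 0.837). Without WT 1, the WT mouse at 5.03 CPM, the Psat1 difference changed sign to 0.17 (adjusted p = 0.924). Those of Asns and Phgdh were then -0.63 and -0.41.

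Of the secreted members, Fgf21 had 24 counts in the 30 libraries together and 0 to 6 in any of them. It was at 0 in 4 of 5 WT mice, 5 of 8 NT mice and 3 of 3 mice given pacDNA-L9 at 21.2 mg/kg. The highest value was 0.302 CPM, from 6 counts in free L9 A. With no filter on low counts, the smallest adjusted p of Fgf21 over the 9 comparisons was 0.756. Gdf15 (chr8:71082038-71091537, minus strand) had 140 counts in all, 17 in WT and 22 in NT, at 0 to 0.514 CPM in WT and 0 to 0.227 CPM in NT (log2 difference -0.37 ± 0.82, adjusted p = 0.904). The 95% interval of Gdf15 ran from -2.08 to 1.33, and Fgf21 had too few counts for an estimate.

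**Figure D2:**
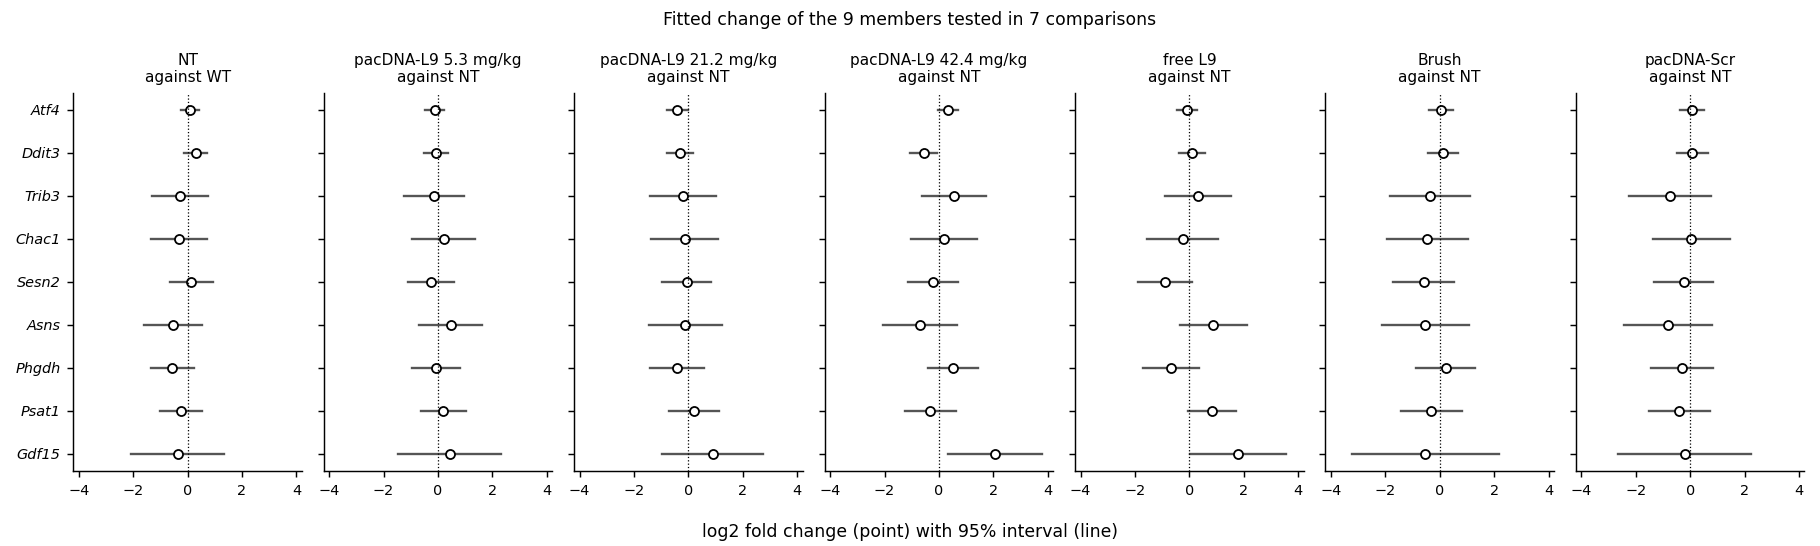
Fitted log2 fold change (x axis) of the 9 members tested (y axis) in the comparison of NT with WT and of 6 treated groups with NT. Points are estimates and lines are 95% intervals. No estimate passed an adjusted p of 0.05, and the intervals of Atf4 are the narrowest, those of Gdf15 the widest.

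After pacDNA-L9 at 5.3 mg/kg, 0 of the 9 members passed the threshold, as did 0% of all genes (277 genes had an unadjusted p under 0.05, among them 0 members; DESeq2 called 3 genes and 0 members). Atf4 stood at 144, 150, 133 and 218 CPM in the 4 mice, and the log2 difference from NT was -0.12 ± 0.17 (95% interval -0.47 to 0.23, adjusted p = 1). The mouse at 218 CPM, D, also had the highest Gdf15 of its group, 0.587 CPM from 11 counts, against 0 to 0.0872 CPM in the other 3. Over the members, log2 differences from NT ran from -0.24 for Sesn2 to 0.46 for Asns.

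After 21.2 mg/kg, 0 members passed the threshold, beside 0.0685% of all genes (12 genes; DESeq2 called 20 genes and 0 members). Atf4 was the member with the lowest unadjusted p. It stood at 134, 131 and 128 CPM, below all 8 NT mice, a log2 difference of -0.41 ± 0.19 (95% interval -0.80 to -0.03, unadjusted p = 0.034, adjusted p = 1). Groups of mice that do not overlap were found for 0.868% of all genes (152 genes) in this comparison, and for 1 of the 9 members. The mice of this dose were closer to each other in Atf4 than those of any other group, with an SD of 3.27 CPM.

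After 42.4 mg/kg, 3.14% of all genes passed the threshold (550 genes) and 0 of the 9 members did. Leaving out mouse B of this dose lowered the count of all genes to 126 and left it at 0 members. Atf4 stood at 218, 234 and 208 CPM, above all 8 NT mice, a log2 difference of 0.34 ± 0.18 (95% interval -0.04 to 0.71, adjusted p = 0.450). Over the doses Atf4 thus had no single direction, with a mean of 161 ± 38.3 CPM at 5.3 mg/kg (SD, n = 4), 131 ± 3.27 CPM at 21.2 mg/kg (n = 3) and 220 ± 13.3 CPM at 42.4 mg/kg (n = 3), against 175 ± 17.9 CPM in NT (n = 8). The number of injections also differed between 21.2 and 42.4 mg/kg, and its part was not tested. Gdf15 stood at 0.516, 0.413 and 0.814 CPM, from 11, 7 and 21 counts, above the 0 to 0.227 CPM of NT. Its log2 difference was 2.07 ± 0.83 (95% interval 0.35 to 3.80, unadjusted p = 0.019, adjusted p = 0.229). Atf4 and Gdf15 were the 2 of 9 members whose groups did not overlap, beside 7.00% of all genes (1227 genes).

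Ddit3 differed from NT in the other direction at this dose. It stood at 10.0, 6.50 and 12.4 CPM, with 1 of the 3 mice inside the NT range, a log2 difference of -0.57 ± 0.24 (95% interval -1.06 to -0.07, unadjusted p = 0.026, adjusted p = 0.275). Without mouse B, the lowest, the log2 difference was -0.35. Trib3 (2.02, 2.07 and 1.08 CPM), Chac1 (15.9, 38.4 and 26.0 CPM) and Sesn2 (4.08, 3.54 and 4.22 CPM) lay within the NT range in every mouse of the dose. Asns (2.25, 0.886 and 1.51 CPM) and Psat1 (1.36, 2.13 and 1.67 CPM) did so too, and Phgdh (4.08, 1.06 and 2.25 CPM) in 2 of 3 mice. For these 6 genes the adjusted p ran from 0.729 to 0.972. All 3 mice of this dose are of the first set, in which Sesn2 of the 6 NT mice ran from 3.94 to 5.46 CPM. Mouse B lay below that range.

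Markers of macrophages were higher after this dose, and not only after it. The 7 macrophage markers summed to 57.2 to 111 CPM in NT and 227 to 336 CPM after 42.4 mg/kg. Of the 7, 5 were higher there past the threshold, beside 2.28% of all genes. The sum also lay above all NT mice after Brush (172 to 191 CPM) and pacDNA-L9 at 5.3 mg/kg (122 to 173 CPM). After 21.2 mg/kg it was 109 to 252 CPM, after pacDNA-Scr 97.0 to 146 CPM and after free L9 54.5 to 87.4 CPM. Cd68 and Lyz2 passed the threshold against NT after 21.2 mg/kg, beside 0.0685% of all genes. After pacDNA-L9 at 5.3 mg/kg, Brush, pacDNA-Scr and free L9, 0 of the 7 did. The 3 neutrophil markers summed to 0 to 0.867 CPM in NT and 0.234 to 2.36 CPM after 42.4 mg/kg, which overlap. Of the 2 that were tested, S100a8 was higher past the threshold (log2 difference 3.64) and the other was not called (-0.11). The highest sum of the 30 mice was 2.56 CPM, in pacDNA-L9 5.3 mg/kg D. In whole muscle, fewer cells of a type and less RNA per cell cannot be told apart, and the part of these cells in the difference of Gdf15 between the groups was not tested. Within groups, as deviations from the group-by-set mean over 30 mice, Gdf15 had a Pearson r of -0.004 with the macrophage markers (permutation p = 0.983) and of 0.34 with the neutrophil markers (permutation p = 0.630, and r of -0.07 without the 2 farthest mice). Gdf15 had 0 to 21 counts in a library, too few for these r to show a relation or its absence. By Xist and Y-linked genes all 3 mice of this dose were female, against 4 of 8 NT mice, and with sex as a further term 0 members passed the threshold. In the deposited table all 3 mice of this dose have columns named by group and a running number, as has 1 of 8 NT mice, and 18200 to 18277 genes were detected in them at equal depth, against 18057 to 20997 in NT. With that naming as a further term, 240 genes and 0 members passed, and the log2 differences were 0.25 for Atf4, 1.68 for Gdf15 and -0.89 for Ddit3.

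After free L9, 0 of 9 members passed the threshold (1 at an unadjusted p under 0.05, against 13.8% of all genes, 2421 genes), beside 0.942% of all genes (165 genes, and 58 to 1360 with 1 mouse left out). The values of several members turned on free L9 B. Sesn2 stood at 4.02, 0 and 2.50 CPM in A, B and C, Trib3 at 2.26, 0 and 1.34 CPM, and Atf4 at 233, 90.1 and 170 CPM. In the opposite direction, Asns stood at 1.86, 9.93 and 1.34 CPM and Psat1 at 2.21, 6.96 and 1.43 CPM. Free L9 B thus held the lowest Atf4, Chac1, Trib3 and Sesn2 and the highest Asns and Psat1 of all 30 libraries. The log2 difference from NT was -0.89 ± 0.48 for Sesn2 (adjusted p = 0.418), 0.88 ± 0.59 for Asns (adjusted p = 0.530) and 0.84 ± 0.42 for Psat1 (adjusted p = 0.384). Without this library it was -0.25, -0.49 and -0.03, and 0 members passed. Gdf15 stood at 0.553, 0.730 and 0.0894 CPM, a log2 difference of 1.78 ± 0.84 (95% interval 0.03 to 3.54, unadjusted p = 0.044, adjusted p = 0.345), which was 1.34 without the library.

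The polymer alone and the scrambled conjugate served as controls of the vehicle, and neither had a called member or gene (0% of all genes in each; 329 and 270 genes at an unadjusted p under 0.05, 0 of them members, and 6 and 0 genes by DESeq2). Atf4 stood at 152 and 208 CPM after Brush (log2 difference from NT 0.05, 95% interval -0.39 to 0.49) and at 174 and 190 CPM after pacDNA-Scr (0.06, 95% interval -0.38 to 0.50). With 2 mice a group the intervals of the less abundant members were wide, for Asns from -2.14 to 1.06 after Brush and from -2.42 to 0.79 after pacDNA-Scr. All 6 treated groups were set against the same NT mice, so these differences share their control.

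At the matched dose of 5.3 mg/kg, joining L9 to the polymer made no detectable difference to the members. Between pacDNA-L9 and free L9, 0.719% of all genes passed the threshold (126 genes) and 0 members. The log2 difference, conjugate minus free, was -0.03 for Atf4 (95% interval -0.46 to 0.40), 0.64 for Sesn2 (-0.44 to 1.72), -0.64 for Psat1 (-1.67 to 0.39) and -1.35 for Gdf15 (-3.54 to 0.84). The free L9 mice include free L9 B, the library that stood apart. Over alternative runs, among them each mouse left out, the estimates ran from -0.30 to 0.33 for Atf4 and 0.04 to 1.44 for Sesn2. They ran from -0.98 to 0.20 for Psat1 and -3.10 to -0.91 for Gdf15. With the letters A to C as a replicate block over these 6 libraries, 0 genes passed, and 0 passed without the block in the same libraries. Unlike the main model, neither of these fits had the set as a term. Between pacDNA-L9 and pacDNA-Scr at this dose 0% of all genes passed (268 at an unadjusted p under 0.05, 0 of them members; 5 genes and 0 members with letters A and B as a replicate block), with a log2 difference of -0.18 for Atf4 (95% interval -0.69 to 0.32) and 1.28 for Asns (-0.51 to 3.06). These intervals leave room for differences of more than 2-fold in every member tested but Atf4 and Ddit3.

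In order of mean level, Atf4 was highest after 42.4 mg/kg (220 CPM), followed by pacDNA-Scr (182 CPM), Brush (180 CPM), NT (175 CPM), free L9 (164 CPM), WT (164 CPM), pacDNA-L9 at 5.3 mg/kg (161 CPM) and at 21.2 mg/kg (131 CPM). Neighbours in this order overlapped, except that all 3 mice given 42.4 mg/kg lay above both mice given pacDNA-Scr. Over the 30 mice Atf4 had a 2.60-fold range, and leaving out the free L9 mice the lowest value was 128 CPM.

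Some genes around the members passed the threshold, as a share near that of all genes between NT and WT. Of 89 genes of the pathway in 11 lists (eIF2 kinases and eIF2 subunits, stress factors, amino acid enzymes and transporters, aminoacyl-tRNA synthetases, other Atf4 targets, chaperones, the mitochondrial relay and myokine receptors), 86 were tested. Between NT and WT 2 were higher and 3 lower, 5.81% of those tested against 5.31% of all genes. Atf3, a stress-induced transcription factor that is also an early gene of injured or active muscle, stood at 26.8 to 99.6 CPM in NT and 2.25 to 16.4 CPM in WT, without overlap (log2 difference 2.84 ± 0.53, adjusted p = 0.0013). Shmt1, the cytosolic serine hydroxymethyltransferase, was higher in NT by a log2 difference of 0.56 ± 0.16 (adjusted p = 0.041).

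The 3 genes that were lower in NT encode mitochondrial enzymes of folate and proline metabolism. Aldh1l2, of mitochondrial folate metabolism, stood at 1.5 to 4.97 CPM in NT and 4.62 to 9.27 CPM in WT (log2 difference -1.69 ± 0.29, adjusted p = 0.00033). Pycr1, which makes proline, stood at 1.76 to 3.09 CPM in NT and 4.49 to 7.84 CPM in WT, without overlap (-1.15 ± 0.21, adjusted p = 0.00083). Aldh18a1, which acts before it in proline synthesis, had a log2 difference of -1.07 ± 0.30 (adjusted p = 0.029) and of -0.64 without WT 1 (adjusted p = 0.237). Atf3, Aldh1l2 and Pycr1 passed the threshold with any 1 mouse of the comparison left out, whereas Aldh18a1 did not without WT 1, the unnumbered WT mouse or NT 1, 3, 4, 5 or 6, and Shmt1 not without WT 1, WT 4, the unnumbered WT mouse or NT 1, 2, 3, 4, 5 or 8. The 4 eIF2 kinases, the 13 tRNA synthetase and export genes, the 12 chaperones and the 7 genes of the mitochondrial relay held 0 called genes, with median log2 differences of -0.20, -0.11, 0.19 and -0.01. Of the macrophage markers, Cd68 was higher in NT (1 of 7), and of the adipocyte markers 0 of 5 were called, and their part in these differences was not tested.

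**Figure D3:**
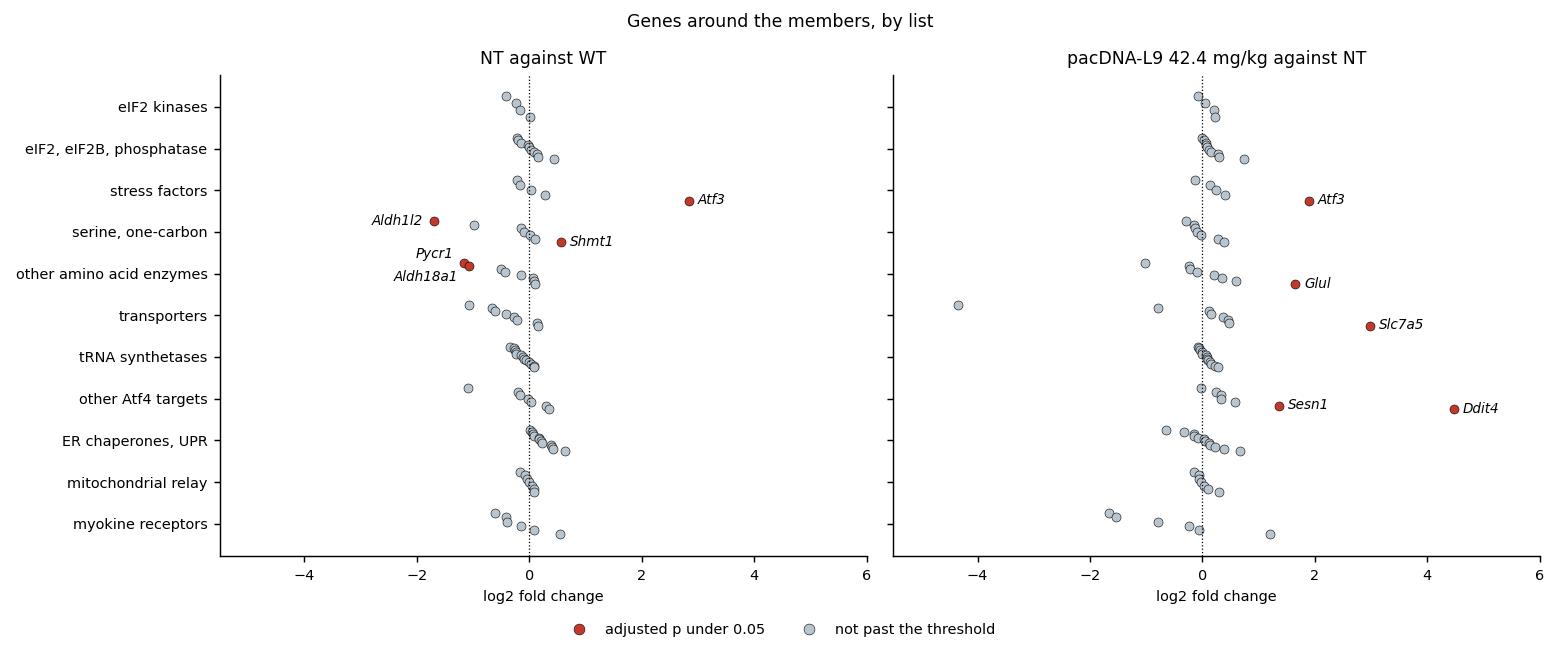
Log2 fold change (x axis) of the 86 pathway genes tested, by list (y axis), in NT against WT (left) and pacDNA-L9 at 42.4 mg/kg against NT (right). Each point is a gene, red where the adjusted p was under 0.05. 5 genes are red in each comparison, and Atf3 is red in both.

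After 42.4 mg/kg, 5 of the 86 genes were higher than in NT and 0 lower, 5.81% of those tested against 3.14% of all genes. Ddit4, a stress-induced inhibitor of mTORC1, stood at 90.6, 698 and 199 CPM against 6.51 to 48.8 CPM in NT (log2 difference 4.47 ± 0.92, adjusted p = 0.0060). Slc7a5, the light chain of the large neutral amino acid transporter, stood at 6.71, 35.5 and 6.90 CPM against 1.08 to 3.36 CPM (2.98 ± 0.51, adjusted p = 0.00067). Atf3 stood at 241, 125 and 172 CPM (1.89 ± 0.51, adjusted p = 0.040), Glul, the glutamine synthetase, at 832, 1499 and 865 CPM (1.65 ± 0.33, adjusted p = 0.0032) and Sesn1, a relative of Sesn2 known as a target of p53 and FoxO factors, at 45.7, 166 and 54.6 CPM (1.37 ± 0.27, adjusted p = 0.0027). In each of the 5 genes the 3 mice lay above all NT mice, yet mouse B was the highest in 4 of them, and without it 0 of the 5 passed the threshold (126 genes in all), with log2 differences of 3.28 for Ddit4, 1.72 for Slc7a5, 2.10 for Atf3, 1.32 for Glul and 0.54 for Sesn1. Atf3 was also past the threshold no longer without 42.4 mg/kg A or C or NT 2, 3, 4, 5, 6 or 8. With column naming as a further term, Slc7a5 (log2 difference 3.39, adjusted p = 0.0084) and Sesn1 (1.35, adjusted p = 0.049) passed and the other 3 did not. Single mice of other groups reached the levels of this dose. Ddit4 stood at 121 CPM in WT 1 and 105 CPM in pacDNA-Scr B, above mouse A of 42.4 mg/kg. Atf3 stood at 263 CPM in pacDNA-L9 5.3 mg/kg D, above all 3 mice of 42.4 mg/kg. Slc7a5 stood at 7.42 CPM in WT 1, and Glul at 865 CPM in pacDNA-L9 21.2 mg/kg C. In the other 5 comparisons with NT and the 2 between treated groups, 0 of the 86 passed.

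Chac1 and Asns were the members with a large spread between mice for their level. The spread between mice after the group and set were taken out, as the biological coefficient of variation, was 19.8% for Atf4 and 23.9% for Ddit3, 38.6% to 51.9% for Sesn2, Psat1, Phgdh and Trib3, 58.2% for Chac1, 61.3% for Asns and 75.8% for Gdf15. Among the 500 genes nearest in level, the spread of Chac1 was above that of 98.4% and that of Asns above 95%, whereas Atf4 stood at 52.6%. Within NT alone Chac1 differed 6.93-fold and Asns 16.7-fold between the lowest and highest mouse, against 1.33-fold for Atf4.

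No relation between members from mouse to mouse passed the test. Of 36 pairs of members, 15 had a positive correlation of their deviations from the group-by-set mean over 30 mice, and 0 pairs passed an adjusted p of 0.05 (permutation test of mice within groups). Atf4 and Sesn2 had a Pearson r of 0.80 (Spearman rho 0.40) over 30 mice and 0.24 without the 3 free L9 mice. Atf4 and Chac1 had an r of 0.66 and 0.48 without free L9, Atf4 and Asns -0.29 and 0.06. The genes most like Atf4 over the 30 mice, among those with a mean of at least 5 CPM, were Dnajb5 (r of 0.92), Fahd2a (0.91) and Eif3f (0.91). Without the free L9 mice they were Dnajb5 (0.82), Slc36a1 (0.82) and Rnps1-ps (0.80). The 95% quantile of r with Atf4 over all genes tested was 0.76, and 0.45 without free L9. These genes are described with no test since they were chosen as the highest.

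**Figure D4:**
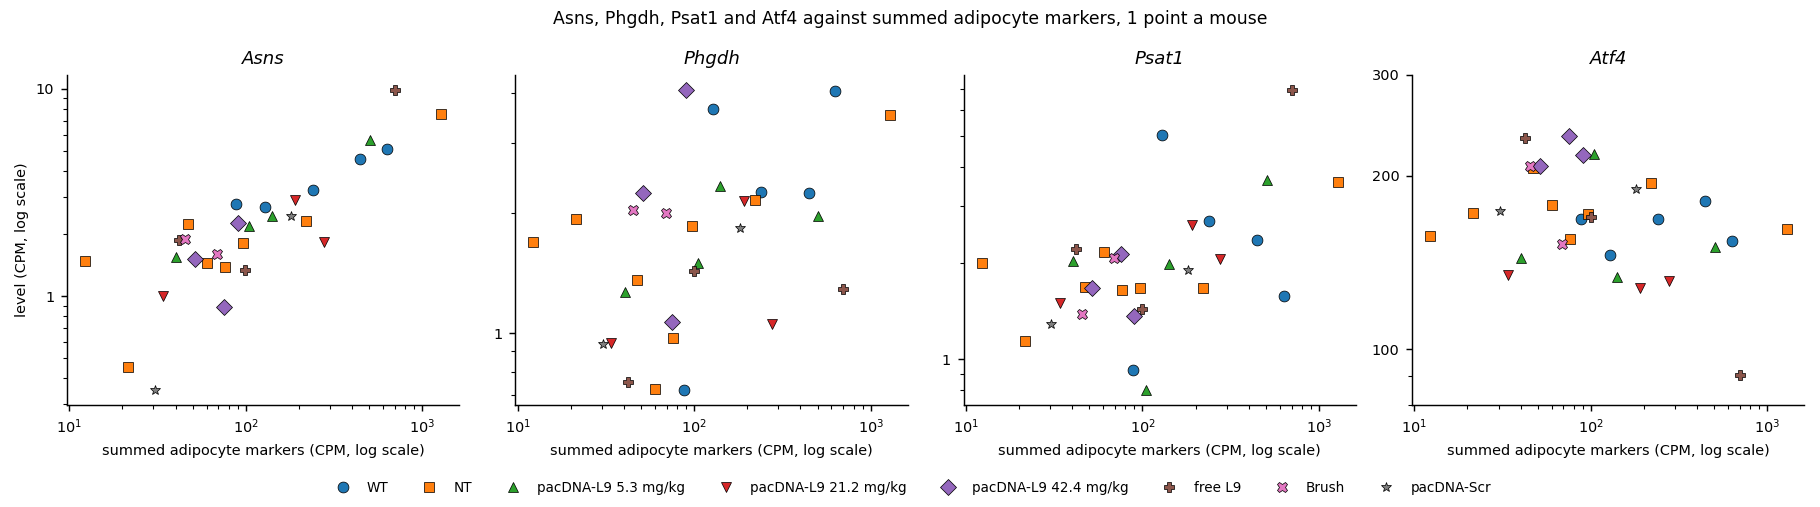
Level of Asns, Phgdh, Psat1 and Atf4 (y axes, CPM, log scale) against the summed level of 5 adipocyte markers (x axes, CPM, log scale). Each point is a mouse, with shape and colour for its group. Asns rises with the markers from 0.352 to 9.93 CPM, and NT 4 and free L9 B lie at the right of each panel.

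Asns moved with the markers of fat cells. The adipocyte markers Adipoq, Plin1, Cfd, Lep and Cidec summed to 1285 CPM in NT 4, against 12.3 to 220 CPM in the other 7 NT mice, and to 699 CPM in free L9 B. These 2 mice had the highest Asns of all, 7.60 and 9.93 CPM, and pacDNA-L9 5.3 mg/kg B, with markers at 505 CPM, was next at 5.67 CPM. As deviations from the group-by-set mean on a log2 scale, Asns and the summed markers had a Pearson r of 0.86 and a Spearman rho of 0.84 over 30 mice (permutation p = 0.00043 and 0.00029; adjusted over 90 relations of 9 members with 10 measures, 0.039 and 0.026). Without NT 4 and NT 2, the mice farthest from the median of the markers, r was 0.85. Without the free L9 mice it was 0.83 over 27 mice (permutation p = 0.00075, adjusted p = 0.067; rho 0.83, adjusted p = 0.046). The relation was 1 of 90 that passed an adjusted p of 0.05 over the 30 mice, and it was noticed in the data before it was tested.

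Phgdh and Psat1 had weaker relations with the same markers, with r of 0.52 (permutation p = 0.0092, adjusted p = 0.276) and 0.53 (permutation p = 0.023, adjusted p = 0.342), and for Atf4 r was -0.28, and 0.02 without free L9. The markers summed to 87.9 to 629 CPM in WT, 12.3 to 1285 CPM in NT and 51.6 to 90.1 CPM after 42.4 mg/kg, ranges that overlapped. None of the 5 markers passed the threshold between NT and WT or between 42.4 mg/kg and NT. Their part in the group values of Asns was not tested.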

How the data were processed

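RNA from 30 mouse quadriceps (poly(A) selection, NovaSeq, paired reads) had been aligned by the authors with HISAT2 2.0.5 to GRCm39, and the deposited tables hold whole-number counts per gene that are not normalized. The counting options, strand setting and annotation release are not given in the sources used here. Groups came from the sample labels. 1 WT column carried no matching number and is called unnumbered.

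The counts were scaled by TMM and tested with edgeR 4.0.16 (quasi-likelihood, robust) in R 4.3.3, in 1 model of 8 groups plus the deposited set over all 30 libraries. The set was added because its libraries stood apart. The 17518 genes kept by filterByExpr were adjusted together (Benjamini-Hochberg, threshold 0.05). Standard errors are the log2 fold change over the root of F. Total counts per library were 13605309 to 26956558, and the floor is 3 counts in a library. Counting error alone sets that floor. The scripts were tested on simulated data.

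The members and lists were chosen with earlier results of these data known. Of the pathway lists, the text names the 3 largest changes per direction and comparison among those past the threshold, and all that passed in a list where 3 or fewer did. Correlations used deviations from the group-by-set mean, permuted within these cells (100000 resamples, two-sided). Deviations of same-lettered mice of pacDNA-L9 5.3 mg/kg and free L9 from their group means had r of 0.53, 0.38 and 0.71 for A, B and C. Mouse B correlated best with another letter. The deposited set was not taken out, and mouse C is of the second set in both groups, so these r cannot show pairing. A fit with the letters as a replicate block is given beside the unpaired result. Alternatives were other scalings and filters, DESeq2 1.42.0, further covariates, the first set only, a replicate block and each library left out.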

Additional observations from a re-analysis of the deposited data

Results flagged for a closer look

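In groups of 4 to 10 mice, 6 of 30 sets of member values held a mouse that stood farther from the others than Dixon's 95% limit allows. That limit passes about 1 in 20 only for independent, normally distributed values. Low counts pooled over the deposited sets need not be so, and 3 of the 6 are 1 mouse. The 6 therefore cannot be read as an excess. In the 2 sets of Fgf21 all other mice were at 0, so that any count stands apart by construction. NT 4 was high in 3 members, with Trib3 at 2.31 CPM, Asns at 7.60 CPM and Psat1 at 3.57 CPM, and it also had the highest summed adipocyte markers of all 30 mice, 1285 CPM. Over 30 mice, deviations from the group-by-set mean had a Pearson r with these markers of 0.86 for Asns (permutation p = 0.00043, adjusted p = 0.039), 0.53 for Psat1 (permutation p = 0.023, adjusted p = 0.342) and -0.09 for Trib3 (permutation p = 0.945, adjusted p = 0.998). PacDNA-L9 5.3 mg/kg D was high in Gdf15, at 0.587 CPM, and in Fgf21, at 0.107 CPM. WT 1 was the only WT mouse with a count of Fgf21, at 0.0530 CPM, which is 1 count.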

How the results depend on the processing

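Of the 9 comparisons, 0 called a member under any alternative run, and the lowest adjusted p of a member was 0.0763, for Sesn2 after free L9 without free L9 A. A change of sign was counted only where a value had passed the threshold. Called genes moved by over 1.5 times as follows. NT against WT gave 1585 genes without free L9 B, an alternative chosen after seeing the data. PacDNA-L9 5.3 mg/kg against NT gave 1 without a filter, 1 with at least 10 counts in every library and 3 with DESeq2. The 21.2 mg/kg dose gave 5 with at least 10 counts, 2 in the first set, 20 with DESeq2 and 4 with only the groups compared. The 42.4 mg/kg dose gave 240 with column naming (group and running number, or other) as a covariate and 945 without free L9 B. Free L9 gave 42 with at least 10 counts, 22 without the set covariate, 354 in the first set, 530 with DESeq2 and 3 with only the groups compared. Brush gave 2 without a filter, 4 with sex, 6 with DESeq2 and 6 without free L9 B. PacDNA-L9 5.3 mg/kg against free L9 gave 26 with at least 10 counts, 2 without the set covariate, 423 with DESeq2 and 2 with only the groups compared.

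With a replicate block, NT against WT gave 631 genes (680 without it in the same mice), pacDNA-L9 5.3 mg/kg against free L9 gave 0 (0 without it) and against pacDNA-Scr 5 (0 without it). The set was not a term in these fits. Deviations of same-numbered NT and WT mice had r of 0.16, -0.05, 0.11 and 0.19, and in 3 of 4 a mouse correlated best with its own number. Whether the numbers pair these mice was not tested. Pathway genes called between NT and WT were 8 with only the groups compared, 3 with the block and 3 without it in the same mice. After 42.4 mg/kg they were 8 with sex, 2 with column naming and 8 without free L9 B, and after free L9 2 in the first set and 1 with DESeq2.

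Leaving out 1 mouse at a time gave 704 to 929 genes for NT against WT, 2 to 20 for 21.2 mg/kg, 126 to 538 for 42.4 mg/kg, 58 to 1360 for free L9 and 13 to 651 for pacDNA-L9 5.3 mg/kg against free L9. The mice that moved these counts by over 1.5 times were A, B and C of 21.2 mg/kg, B of 42.4 mg/kg, NT 7 and 8 and free L9 A, B and C for free L9 against NT, and free L9 A, B and C and pacDNA-L9 5.3 mg/kg B, C and D for the last comparison. Pathway genes called were then 3 to 6, 0 after 21.2 mg/kg, 0 to 5 after 42.4 mg/kg, 0 to 3 after free L9 and 0 to 1 in the last comparison. A group of 2 left with 1 mouse was assumed to vary like the others. Fold changes of the named pathway genes stayed on their side of the threshold in 217 alternatives and lost it in 41. The cause of these shifts was not tested. Depth limits Fgf21, with 24 counts in all, and Gdf15, with 140.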
